A study of Homo sapiens with 6 samples.

Results

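The bone morphogenetic protein (BMP) receptors, SMAD proteins and ID genes were examined in HBMEC, which the labels describe as an endothelial line from human brain microvessels. The set was defined by name as 9 genes: the ligand BMP4, the receptors BMPR1A and BMPR2, the signal carriers SMAD1 and SMAD5, the inhibitor SMAD6 and the target genes ID1, ID2 and ID3. Of these 9 genes, 8 had a value among the 17104 genes of the deposited count table. BMP4 had no value, and its level was not analysed here. RNA-seq was done on 3 control libraries from cells under normal culture and 3 libraries from cells put through OGD/R. OGD/R is oxygen-glucose deprivation followed by reperfusion, a culture model of ischaemic stroke in which cells lose oxygen and glucose and then regain both. Both groups came from the same cell line and carried no stated genetic change. Durations are not given in the sources used here. The labels do not state whether replicates were independent cultures, and p-values therefore measure only the spread between these 6 libraries, some or all of which may be technical.

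BMPs are secreted ligands of the TGF-beta superfamily. They bind a complex of type 1 receptors such as BMPR1A and type 2 receptors such as BMPR2, the type 1 receptor phosphorylates SMAD1, SMAD5 and SMAD9, and these enter the nucleus with SMAD4. ID1, ID2 and ID3 are among the most direct transcriptional targets of this pathway. They encode helix-loop-helix proteins without a DNA-binding region, which hold E proteins such as TCF3, TCF4 and TCF12 off DNA. SMAD6 and SMAD7 are induced by the signal and inhibit it. In endothelial cells the pathway is known for its part in vessel formation and quiescence, and BMPR2 is the main gene of heritable pulmonary arterial hypertension.

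Total counts were 31048662 to 34484647 per library. The labels call the cells endothelial, and of 11 endothelial marker genes 4 had a value, CDH5, ESAM, EGFL7 and ROBO4. Their summed level was 198 to 215 CPM (read counts scaled to library size) in control and 203 to 210 CPM in OGD/R libraries. The sum was carried by ESAM and EGFL7, which did not pass the test of all genes, while CDH5 rose from 10.3 to 18.1 CPM (log2 fold change 0.81, adjusted p 2.71e-07, edgeR) and ROBO4 fell from 6.36 to 3.79 CPM (−0.75, adjusted p 0.00107). PECAM1, VWF, KDR, TEK, TIE1, CLDN5 and ERG had no value here. Of 8 epithelial markers, 7 had a value, and their sum was 2445 to 2670 CPM in control and 2998 to 3059 CPM in OGD/R libraries. The keratins KRT8 (0.33), KRT18 (0.18) and KRT7 (0.17) rose and make up most of this sum, while EPCAM (0.14), CDH1 (−0.28), CLDN4 (−0.25) and ESRP1 (−0.18) did not pass. Fibroblast markers had a value for 1 of 6 genes (14.2 to 15.2 CPM and 11.7 to 17.8 CPM), pericyte markers for 3 of 5 (7.06 to 8.05 CPM and 6.14 to 7.63 CPM), and astrocyte and immune cell markers for 0 of 4 each. In every library the epithelial sum was above the endothelial sum, and 7 of 11 endothelial markers had no value. These markers thus do not by themselves bear out the endothelial label, and the identity of the cells was not tested. The part of these marker levels in the results was not tested. In bulk RNA, fewer cells of a type and less RNA per cell cannot be told apart.

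3 promoters are shown as examples. BMPR2 was the member whose level passed the test, and SMAD6 was the member with the palindromic SMAD-binding element. ID1 is the textbook target of the pathway. Whether such elements relate to the levels was not tested. Each run is the 250 bases before the annotated start in RefSeq on GRCh38.p14, read 5′ to 3′ on the gene's strand. Capitals mark a match to the palindromic SMAD element GTCTAGAC or to the GC-rich SMAD element GGCGCC, both of which read the same on either strand and do not overlap.
BMPR2 (chr2:202376077-202376326, plus strand): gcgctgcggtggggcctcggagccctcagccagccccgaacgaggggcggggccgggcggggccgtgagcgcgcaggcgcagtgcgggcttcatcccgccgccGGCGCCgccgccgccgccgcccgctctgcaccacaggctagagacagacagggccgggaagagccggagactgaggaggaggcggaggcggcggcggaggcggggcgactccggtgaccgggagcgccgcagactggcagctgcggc
SMAD6 (chr15:66701986-66702235, plus strand): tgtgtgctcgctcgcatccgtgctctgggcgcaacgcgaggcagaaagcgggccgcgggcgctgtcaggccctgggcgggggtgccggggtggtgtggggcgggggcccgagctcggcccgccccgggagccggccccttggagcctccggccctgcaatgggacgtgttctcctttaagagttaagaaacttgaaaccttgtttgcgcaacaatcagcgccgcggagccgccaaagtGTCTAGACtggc
ID1 (chr20:31605039-31605288, plus strand): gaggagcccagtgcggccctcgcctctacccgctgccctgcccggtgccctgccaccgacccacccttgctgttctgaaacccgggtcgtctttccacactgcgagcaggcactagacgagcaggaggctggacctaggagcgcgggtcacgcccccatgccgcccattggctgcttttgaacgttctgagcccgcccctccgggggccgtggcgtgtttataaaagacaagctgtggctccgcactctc
The BMPR2 window held GGCGCC with its first base 147 bases before the start, in sequence of 79.2% GC. The SMAD6 window held GTCTAGAC with its first base 12 bases before the start, and the ID1 window held neither run. Among 35116 windows of 250 bases in the same table, GTCTAGAC occurred in 64 (0.182%) and GGCGCC in 5752 (16.4%). The windows of ID2, ID3, SMAD5 and BMPR1A held neither run, where all 250 bases of the ID3 window and 202 of those of ID2 lie in exons annotated by GENCODE 29. Of the remaining genes, 2 of the 5 windows of SMAD1 and 1 of the 3 windows of BMP4 held GGCGCC. A match is a description of the letters and not a bound site. Sequence further upstream was not searched, so a window without a match does not mean that the gene has no such element.

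After OGD/R, BMPR2 was lower, and none of the other 7 members passed the test. Apart from the barely detected ID2, the fold changes of the members lay between −0.18 and 0.15 on the log2 scale. The test was edgeR's quasi-likelihood test over all 17104 genes with p-values adjusted by Benjamini-Hochberg and called under 0.05. By this test 1 of 8 members passed (12.5%), against 19.7% of all genes (3370 genes). The member that passed was lower, as were 9.48% of all genes, while 10.2% of all genes were higher (1621 lower and 1749 higher, or 2098 lower and 1383 higher with total-count scaling). The median log2 fold change was −0.06 over the members and −0.00 over all genes, and the median size of the change without its sign was 0.127 over the members and 0.152 over all genes. The share of members that passed was thus below that of all genes, which with 8 genes is a description only.

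**Figure D1:**
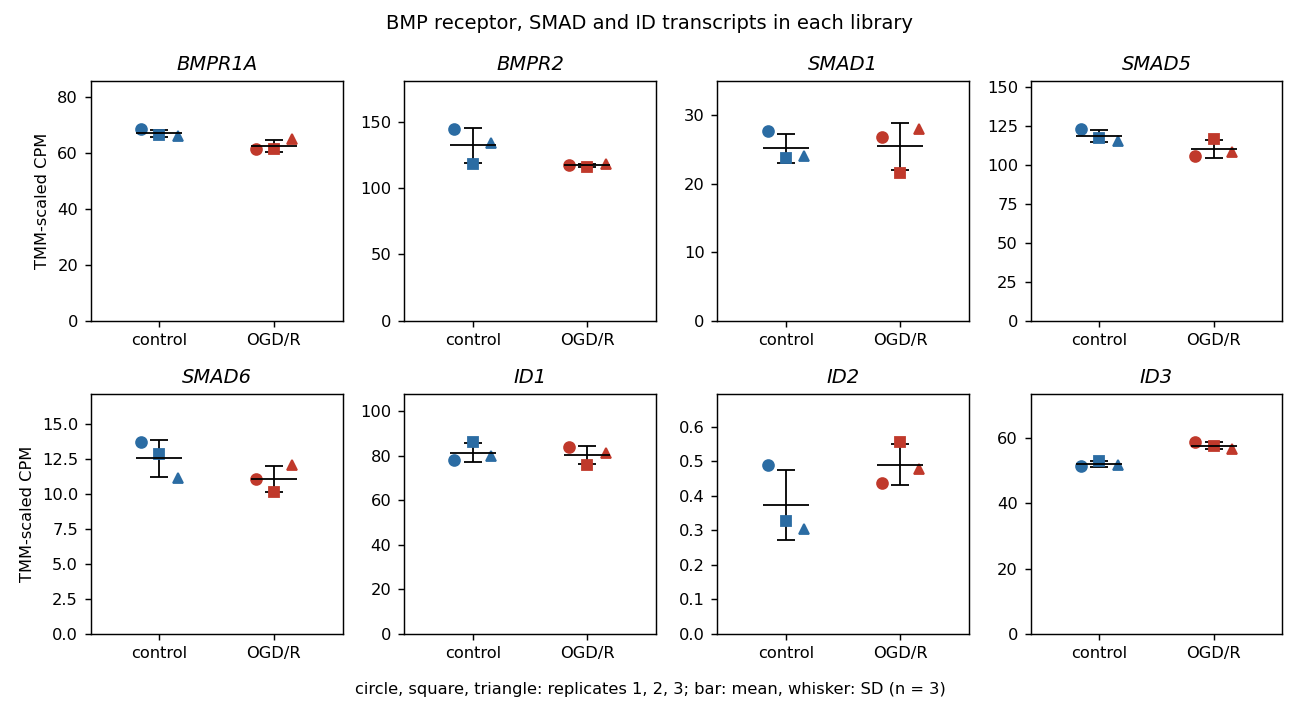
Level of each member in the 6 libraries, in TMM-scaled CPM on linear axes from 0; points are libraries, the horizontal bar is the mean and the whisker the SD (n = 3). ID1 lies at 76.0 to 86.2 CPM in all libraries, all OGD/R values of ID3 lie above all control values, and the OGD/R values of BMPR2 lie together at the lower end of a wider control group.

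BMPR2, the type 2 receptor with specificity for BMPs, had 144.6, 117.9 and 134.0 CPM in control replicates 1, 2 and 3 and 117.5, 116.2 and 118.2 CPM in OGD/R replicates 1, 2 and 3. The OGD/R libraries agreed closely with one another, and control replicates 1 and 3 lay above them, but control replicate 2 lay within their range. The mean fell from 132.2 ± 13.5 to 117.3 ± 1.00 CPM (SD, n = 3), a log2 fold change of −0.17 ± 0.05 (SE) with an adjusted p of 0.0141 by edgeR. The interval of the change, not adjusted, ran from −17.5% to −4.55%. The call depended on single libraries: the log2 fold change was −0.10 (adjusted p 0.201) without control replicate 1, −0.16 (0.0827) without control replicate 3 and −0.17 (0.0725) without OGD/R replicate 2, while without control replicate 2 it was −0.24 (0.000112). It was also lost when each library's trend with transcript length and GC content was removed, where the fold change was −0.09 (adjusted p 0.16). The longest BMPR2 transcript has 11461 bases, and the deviation of a library from the mean was correlated with transcript length across 10848 genes (Spearman's rho 0.441, 0.042 and 0.285 in control replicates 1 to 3, and −0.280, −0.334 and −0.231 in OGD/R replicates 1 to 3). These rho values are across genes, which are not independent replicates.

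BMPR1A, a type 1 receptor that phosphorylates SMAD1 and SMAD5, had 68.5, 66.2 and 66.0 CPM in the controls and 61.3, 61.2 and 64.9 CPM after OGD/R. All OGD/R values lay below all control values. The means were 66.9 ± 1.38 and 62.5 ± 2.10 CPM, and the log2 fold change of −0.10 ± 0.06 did not pass (adjusted p 0.238, edgeR). Its longest transcript, of 11255 bases, is nearly as long as that of BMPR2, and with the length and GC correction the fold change was −0.00 (adjusted p 0.979). Non-overlap of the groups was found for 2 of 8 members, BMPR1A and ID3, and for 33.0% of all genes.

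The receptor-regulated SMADs are the carriers of the signal, and neither of the members of this class passed the test. SMAD1 had 27.7, 23.8 and 24.0 CPM in the controls and 26.9, 21.6 and 28.0 CPM after OGD/R. The ranges overlapped, with replicate 2 the lowest library of each group. The means were 25.2 ± 2.16 and 25.5 ± 3.45 CPM (log2 fold change 0.02 ± 0.09, adjusted p 0.922, edgeR), with an unadjusted 95% interval from −10.4% to 14.6%. The sign of this small value was not stable. It was −0.01 with total-count scaling and −0.05 with the length and GC correction. With a library left out it was −0.02 (control replicate 2), −0.01 (control replicate 3), −0.02 (OGD/R replicate 1) and −0.05 (OGD/R replicate 3).

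SMAD5 had 123.0, 116.9 and 115.6 CPM in the controls and 105.8, 116.5 and 108.2 CPM after OGD/R. Only OGD/R replicate 2 reached the control range. The means were 118.5 ± 3.96 and 110.2 ± 5.59 CPM, and the log2 fold change of −0.11 ± 0.05 did not pass the test (adjusted p 0.122, edgeR). With total-count scaling it was −0.14 and passed (adjusted p 0.0389), and with the length and GC correction it was −0.07 (adjusted p 0.280). Other genes share 6.21% of the exon bases of SMAD1, on the opposite strand, and 6.75% of those of SMAD5, on both strands. It is not given whether the counting used strand.

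SMAD6, the inhibitory SMAD that blocks BMP type 1 receptors, had 13.7, 12.8 and 11.1 CPM in the controls and 11.1, 10.2 and 12.0 CPM after OGD/R. Control replicates 1 and 2 were the highest libraries, and control replicate 3 lay within the OGD/R range. The means of 12.5 ± 1.32 and 11.1 ± 0.93 CPM gave a log2 fold change of −0.18 ± 0.11 (adjusted p 0.315, edgeR). Its unadjusted interval ran from −24.6% to 3.78%. The log2 fold change was −0.11 without control replicate 1 and −0.10 with the length and GC correction.

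The ID genes, known transcriptional targets of the pathway, did not pass the main test. The activity of the pathway itself was not measured. ID1 had 78.1, 86.2 and 80.1 CPM in the controls and 83.9, 76.0 and 81.1 CPM after OGD/R, with replicate 2 the highest control and the lowest OGD/R library. The means were 81.5 ± 4.18 and 80.3 ± 4.01 CPM. The log2 fold change was −0.02 ± 0.05 (adjusted p 0.853, edgeR), and the unadjusted 95% interval ran from −8.52% to 6.25%. Without control replicate 2 the value was 0.02, and without OGD/R replicate 2 it was also 0.02. ID1 has a short longest transcript of 1233 bases, and the length and GC correction moved it to −0.14 with an adjusted p of 0.0339, lower in that analysis, where 19.3% of all genes passed. Whether ID1 passed thus depended on that correction.

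ID3 had 51.3, 53.0 and 51.7 CPM in the controls and 58.7, 57.6 and 56.5 CPM after OGD/R. The libraries of each group lay close together and the groups did not overlap. The means were 52.0 ± 0.86 and 57.6 ± 1.11 CPM, a log2 fold change of 0.15 ± 0.06 that did not pass in edgeR (adjusted p 0.0700). DESeq2 gave 0.15 with an adjusted p of 0.0444, where 24.8% of the genes with an adjusted p passed. With the length and GC correction the fold change was 0.03 (adjusted p 0.799). The longest ID3 transcript has 1251 bases, close to that of ID1.

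ID2 was barely detected. It had 16, 11 and 10 counts in the control libraries and 15, 17 and 16 counts in the OGD/R libraries, and the ranges overlapped. This gave 0.374 ± 0.101 and 0.490 ± 0.060 CPM and a log2 fold change of 0.39 ± 0.53 (adjusted p 0.683, edgeR). Without control replicate 1 it was 0.63. Its unadjusted interval, from −37.2% to 172%, shows that at this depth a change of the size of the other members was not detectable.

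**Figure D2:**
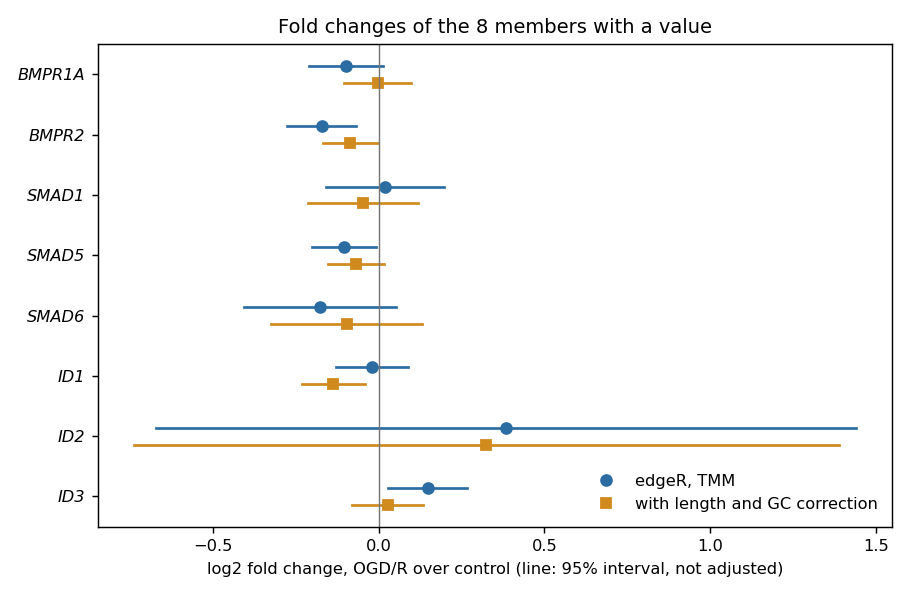
Log2 fold change of each member, OGD/R over control, with its unadjusted 95% interval, from the main test (circles) and with the length and GC correction (squares). The long transcripts BMPR2 and BMPR1A move toward 0 with the correction, from −0.17 to −0.09 and from −0.10 to −0.00, while the short transcripts ID3 and ID1 move down, from 0.15 to 0.03 and from −0.02 to −0.14.

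**Figure D3:**
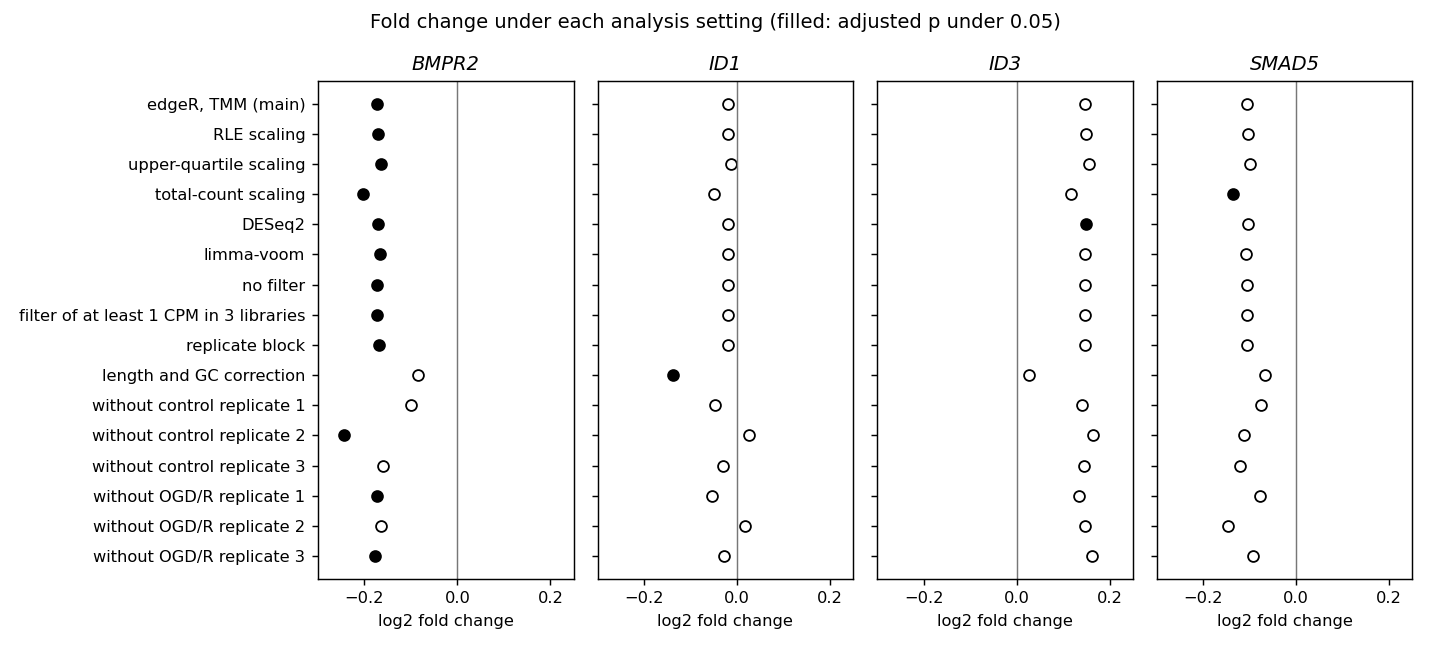
Log2 fold changes of BMPR2, ID1, ID3 and SMAD5 under each analysis setting, with filled points where the adjusted p was under 0.05. BMPR2 is below 0 in every setting shown and passed in 11 of the 15 alternatives, and ID1, ID3 and SMAD5 each passed in 1 of 15.

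The levels of the members can be ordered per kilobase of exon, taking all annotated exons of a gene together in GENCODE 29. In the controls the order was ID1 (66.1 CPM per kb), ID3 (28.9), SMAD5 (13.1), BMPR2 (11.1), BMPR1A (5.86), SMAD1 (4.16), SMAD6 (1.46) and ID2 (0.170). After OGD/R it was the same, with 65.1 CPM per kb for ID1, 32.1 for ID3, 12.2 for SMAD5, 9.86 for BMPR2, 5.47 for BMPR1A, 4.21 for SMAD1, 1.29 for SMAD6 and 0.222 for ID2. The library ranges of neighbours in this order did not overlap in either group. ID1 was thus the most abundant ID transcript per length and ID2 a minor one. SMAD1 and BMPR1A change places when the longest transcript alone is the length, with 7.65 CPM per kb for SMAD1 and 5.94 for BMPR1A in the controls, so their order depends on the transcript present.

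Ratios within a library do not depend on scaling between libraries, and 3 were computed. The counts of ID3 were 0.657, 0.615 and 0.645 of those of ID1 in the controls and 0.700, 0.758 and 0.697 after OGD/R. All OGD/R ratios lay above all control ratios, a log2 difference of 0.17. An exact two-sided permutation test over the 6 libraries gave p = 0.1, the lowest value this design allows, and 0.3 after adjustment over the 3 ratios. The ratio of BMPR2 to BMPR1A was 2.11, 1.78 and 2.03 in the controls and 1.92, 1.90 and 1.82 after OGD/R, and the groups overlapped (exact permutation p = 0.5). The ratio of SMAD6 to the sum of SMAD1 and SMAD5 was 0.0871 ± 0.0066 and 0.0817 ± 0.0074 (exact permutation p = 0.5).

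The wider pathway was read from 6 lists of other ligands, receptors, antagonists, intracellular regulators, targets and E proteins. Of their 52 genes, 30 had a value and 11 of these passed the test (36.7%, against 19.7% of all genes), 9 lower and 2 higher. The median log2 fold change was −0.11 over the 30 genes and −0.00 over all genes, and the median size was 0.192 against 0.152. Libraries of the groups did not overlap for 13 of the 30, against 33.0% of all genes. BMP6 and HEY1, counted among the 11 and the 13, met the minimum level of the genes tested only through their control libraries. The 19 genes that did not pass lay between −0.43 and 0.32, and the 16 of them with at least 5 CPM in control lay between −0.25 and 0.07. The count of 11 fell to 5 of the 30 without control replicate 1 and to 7 of the 30 without OGD/R replicate 2. In the same omissions the count over all 17104 genes fell from 3370 to 2756 and to 2435. Without control replicate 1 the share of pathway genes that passed was thus close to that of all genes. With the length and GC correction 8 pathway genes passed, not all of them among the 11, and 19.3% of all genes passed.

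**Figure D4:**
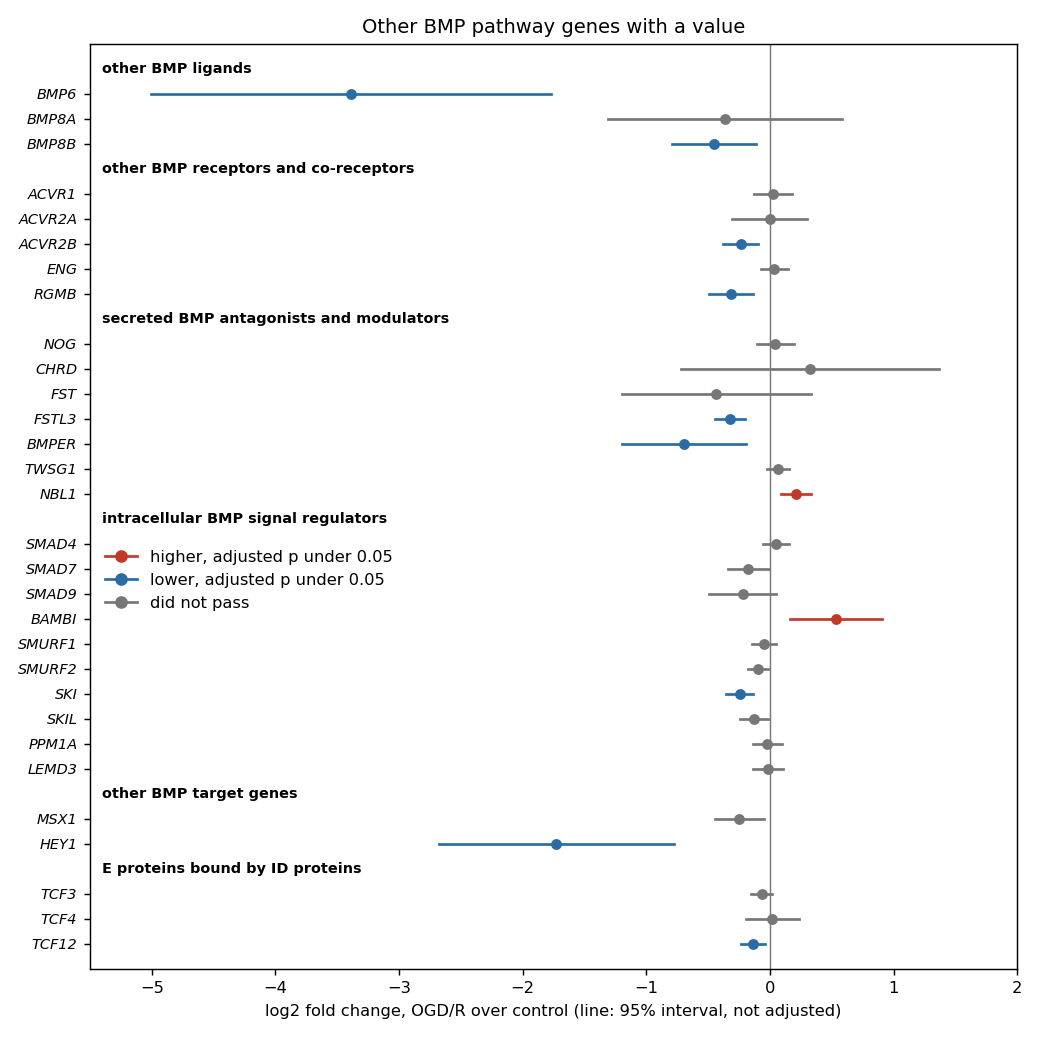
Log2 fold change, OGD/R over control, of the 30 other BMP pathway genes with a value, by list, with unadjusted 95% intervals; colour marks the 11 with an adjusted p under 0.05. The ligand BMP6 and the target HEY1 lie far to the left on few counts, and most other genes lie within 0.5 of 0.

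Among the ligands, 3 of 12 genes had a value, and 2 of these passed, both lower (66.7%, against 19.7% of all genes). BMP6, a ligand known in endothelial cells for its part in iron balance, had 14, 18 and 14 counts in the controls and 0, 2 and 2 counts after OGD/R. Every OGD/R library was below every control library. The summed counts of 46 and 4 gave a library-size scaled ratio of 0.0876 with a 95% counting interval from 0.0229 to 0.240, and the fitted log2 fold change was −3.39 ± 0.81 (adjusted p 0.00141, edgeR). The fitted value depends on the prior count, since 1 library was at 0. BMP6 met the minimum level of the genes tested only through its control libraries. At this level after OGD/R only a fall could be seen, so the values are a description. BMP8B was lower at 4.26 ± 0.13 against 5.84 ± 0.62 CPM (−0.45 ± 0.17, adjusted p 0.0479), and this call was lost without control replicate 1 or 3 and without any single OGD/R library (adjusted p 0.0767 to 0.215), and with upper-quartile scaling (0.0523), limma-voom (0.0599) and the length and GC correction (0.0968). BMP2, BMP5, BMP7, BMP10 and GDF2 were among the 9 ligands without a value here.

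Of 9 other receptors and co-receptors, 5 had a value and 2 passed, both lower (40.0%, against 19.7% of all genes). ACVR2B, an activin type 2 receptor that BMPs also use, had 39.7, 37.7 and 36.6 CPM in the controls and 30.2, 33.2 and 33.4 CPM after OGD/R, with no overlap between the groups. Its log2 fold change was −0.24 ± 0.07 (adjusted p 0.0125, edgeR). It was −0.12 with the length and GC correction (adjusted p 0.249), −0.20 without control replicate 1 (0.0699) and −0.19 without OGD/R replicate 1 (0.0909). RGMB, a BMP co-receptor, fell from 26.7 ± 3.64 to 21.4 ± 1.01 CPM (−0.31 ± 0.09, adjusted p 0.00693), and without control replicate 1 the change was −0.20 (0.150). Genes on the opposite strand share 45.6% of the exon bases of RGMB, so its reads may include theirs.

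The type 1 receptor ACVR1 had 27.7 ± 1.58 and 28.2 ± 1.07 CPM (0.02 ± 0.08, adjusted p 0.890, edgeR). The sign of this value turned under total-count scaling (−0.01), without control replicate 1 (−0.00) and under the length and GC correction (−0.03). Endoglin (ENG), an endothelial co-receptor, had 78.4 ± 1.31 and 80.3 ± 6.20 CPM (0.03 ± 0.05, adjusted p 0.740), with −0.01 without OGD/R replicate 1. ACVRL1, the type 1 receptor typical of endothelium, had no value here.

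Among 11 secreted antagonists and modulators, 7 had a value, 2 were lower and 1 was higher (42.9% passed, against 19.7% of all genes). FSTL3, which binds activins and some BMPs, had 67.5, 70.8 and 71.0 CPM in the controls and 58.6, 59.0 and 49.8 CPM after OGD/R. OGD/R replicate 3 was the lowest library, and no OGD/R value reached the controls. Its log2 fold change of −0.32 ± 0.06 (adjusted p 5.85e-05, edgeR) passed in all 15 alternatives. BMPER, a modulator known from endothelial cells, fell from 2.75 ± 0.28 to 1.69 ± 0.39 CPM (−0.70 ± 0.25, adjusted p 0.0409). This call was lost without control replicate 1 or 3 or OGD/R replicate 2 or 3 (adjusted p 0.10 to 0.162) and under the length and GC correction (0.0549).

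NBL1, which binds and blocks BMPs, was higher, with 47.2, 53.4 and 51.3 CPM in the controls and 59.8, 56.0 and 59.6 CPM after OGD/R. The groups did not overlap, and the log2 fold change was 0.21 ± 0.06 (adjusted p 0.0104, edgeR). Without control replicate 1 it was 0.16 (0.0724). Same-strand genes share 17.8% of the exon bases of NBL1, and reads there cannot be assigned to one gene.

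All 10 intracellular regulators had a value, and 2 of the 10 passed, against 19.7% of all genes. Of these 2, 1 was lower and 1 higher. The share of this list that passed was thus close to that of all genes. SKI, a corepressor that binds SMAD proteins, had 102.4, 99.6 and 99.9 CPM in the controls and 88.3, 90.3 and 76.2 CPM after OGD/R, with no overlap. It fell by 0.25 on the log2 scale (SE 0.05, adjusted p 0.000521, edgeR) and passed in all 15 alternatives, with −0.15 (adjusted p 0.0217) under the length and GC correction. BAMBI, a decoy receptor without kinase activity, had 5.36, 2.92 and 5.23 CPM in the controls and 5.31, 7.05 and 7.19 CPM after OGD/R. Its log2 fold change was 0.53 ± 0.18 (adjusted p 0.0332), although OGD/R replicate 1 lay within the control range. Without control replicate 2, the lowest library, the change was 0.30 (0.264), and the call was also lost without OGD/R replicate 2 (0.47, adjusted p 0.142) or 3 (0.46, 0.143) and with the length and GC correction (0.45, 0.0802).

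The other SMAD proteins of the pathway did not pass. SMAD4, the shared partner, had 76.6 ± 3.60 and 79.1 ± 1.06 CPM (0.05 ± 0.05, adjusted p 0.610, edgeR), and with the length and GC correction it was 0.13 with an adjusted p of 0.0474. SMAD7, the second inhibitory SMAD, had 26.5, 26.6 and 23.7 CPM in the controls and 22.3, 23.5 and 22.1 CPM after OGD/R. The groups did not overlap, and the change of −0.18 ± 0.08 had an adjusted p of 0.134. SMAD9, the third BMP-regulated SMAD, had 9.06 ± 1.00 and 7.79 ± 0.98 CPM (−0.22 ± 0.14, adjusted p 0.285), with −0.13 without control replicate 1 and −0.12 without OGD/R replicate 1.

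Of 7 other target genes, 2 had a value and 1 of these 2 passed, as lower. Of all genes, 19.7% passed and 9.48% were lower, and with 2 genes the comparison is a description only. HEY1, a transcriptional repressor that responds to both BMP and Notch signals, had 0.980, 0.745 and 1.12 CPM in the controls and 0.292, 0.261 and 0.298 CPM after OGD/R. Every OGD/R library was below every control library. The summed counts were 94 and 28, a scaled ratio of 0.300 with a 95% counting interval from 0.189 to 0.462, and the log2 fold change was −1.73 ± 0.47 (adjusted p 0.00604, edgeR). Like BMP6, HEY1 met the minimum level of the genes tested only through its control libraries, so only a fall could be seen. The other gene, MSX1, a homeobox factor named here after its values were seen, had 18.6 ± 0.88 and 15.6 ± 2.07 CPM with overlapping groups and did not pass (−0.25 ± 0.10, adjusted p 0.0711). With the length and GC correction it was −0.30 (adjusted p 0.0190). ID4 was among the targets without a value here.

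The E proteins are the partners that ID proteins hold off DNA, and all 3 had a value. Of these 1 passed (33.3%, against 19.7% of all genes). TCF12 fell from 112.3 ± 2.83 to 102.2 ± 5.96 CPM (−0.14 ± 0.05, adjusted p 0.0427, edgeR). This was close to the threshold and was lost in 8 of 15 alternatives, among them the omission of each control library and of OGD/R replicate 1 or 2 (adjusted p 0.0670 to 0.268). TCF3 had 246.8 ± 9.90 and 235.5 ± 9.99 CPM (−0.07 ± 0.04, adjusted p 0.302), which became 0.00 with the length and GC correction. TCF4 had 12.8 ± 0.60 and 13.0 ± 0.26 CPM (0.02 ± 0.11, adjusted p 0.937), with −0.01 under total-count scaling and −0.00 without control replicate 3.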

How the data were processed

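Per the labels' protocols, total RNA from HBMEC was prepared for sequencing with NEBNext Ultra reagents, giving 6 libraries. The authors deposited a table of raw counts, 1 row for each Ensembl gene. Trimmomatic, HISAT2, SAMtools, featureCounts and edgeR are named without versions in the submitters' processing notes, which give the build GRCm38. That is a mouse build, while the gene IDs are human, so the build behind the counts is uncertain and no gene positions are taken from the table. Strand use and the treatment of reads matching several genes are not given in the sources used here. Symbols were matched for 17093 of 17104 IDs. Each gene of the table already met filterByExpr's minimum count of 10, which removed 0 genes. A gene with no value here may lie below such a minimum or be missing for another reason, and its level is not known.

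In a chi-square comparison of libraries, the value per degree of freedom was 4.10 to 7.53 within groups and 16.3 to 23.9 across them, so all 6 were kept as separate samples. The test was edgeR 4.0.16 (R 4.3.3) on TMM-scaled counts (quasi-likelihood, robust, two-sided, no replicate block), with Benjamini-Hochberg adjustment over all genes and a threshold of 0.05. The common biological coefficient of variation was 6.26%. CPM values are TMM-scaled, and means have SDs over 3 libraries. The script was tested on simulated data.

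Alternatives were 3 other scalings (total-count, RLE, upper-quartile), limma-voom (limma 3.58.1), DESeq2 1.42.0, no filter, at least 1 CPM in 3 libraries, the replicate block, leaving out each library, and a length and GC correction. Since the filter removed 0 genes, the setting without it equals the main test, and its agreement in the counts of 15 alternatives was fixed in advance. The correction removed smooth trends (mgcv 1.9.3) fitted on 10848 genes with the longest GENCODE 29 transcript, known for 96.6% of genes.

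Members and lists were chosen with earlier results of these data known. Named genes are all members with a value, every pathway gene that passed, and SMAD4, SMAD7, SMAD9, ACVR1, ACVRL1, ENG, ID4, HEY1, TCF3, TCF4 and TCF12. Promoters are from RefSeq (GRCh38.p14), matched for all 9 members. Counting intervals cover counting error only.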

Additional observations from a re-analysis of the deposited data

How the results depend on the processing

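Of the 118 member fold changes recomputed under the alternatives, 103 kept their direction and side of the threshold. Both numbers include the setting without a filter, which could only repeat the main test. The number of members called was 2 with total-count scaling (BMPR2 and SMAD5), 2 with DESeq2 (BMPR2 and ID3), and 0 to 1 when single libraries were left out. For other pathway genes it was 5 to 11 in those omissions. Over all genes the number was 3370 in the main test (19.7% of 17104 genes) and 3481 with total-count scaling. It was 3338 with DESeq2 (24.8% of the 13454 genes with an adjusted p). It was 2383 to 3367 over all genes in the omissions. Total-count scaling gave 1383 higher and 2098 lower genes in all, against 1749 and 1621 with TMM. It gave −0.14 for SMAD5, −0.011 for SMAD1, −0.0072 for ACVR1 and −0.011 for TCF4. DESeq2 gave 0.15 for ID3. The length and GC correction gave −0.14 for ID1, −0.047 for SMAD1, −0.085 for BMPR2, −0.031 for ACVR1 and 0.0044 for TCF3. With single libraries left out, the range was −0.053 to 0.025 for ID1, −0.055 to 0.12 for SMAD1, −0.245 to −0.10 for BMPR2, −0.0034 to 0.073 for ACVR1, −0.0065 to 0.097 for ENG and −0.0038 to 0.060 for TCF4. The cause was not tested.

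For the 18 other named pathway genes, 228 of 266 values kept direction and side, 30 lost the call, 1 gained it and 7 changed sign. DESeq2 gave no adjusted p for ID2, BMP6 and HEY1, and the filter of 1 CPM removed them. Omitting the filter left the tested genes as they were. Same-numbered libraries did not deviate together (r = −0.003, 0.086 and −0.017). With the replicate block, 3529 genes, 1 member (BMPR2, −0.17, adjusted p 0.00622) and 11 pathway genes were called. The low counts of ID2 (10 to 17 per library) and BMP6 (0 to 18) limit how precisely their changes are known.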

Other observations

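The neighbouring TGF-beta arm, in which TGFBR1 and TGFBR2 act through SMAD2 and SMAD3, had 1 of 4 genes called (25.0%, against 19.7% of all genes). SMAD3 had 754.6, 733.3 and 759.6 CPM in the controls and 681.5, 689.2 and 682.7 CPM after OGD/R, with no overlap between the groups. Its log2 fold change was −0.13 ± 0.04 (adjusted p 0.0119, edgeR), and −0.04 (adjusted p 0.428) with the length and GC correction. TGFBR2 had 202.8 ± 3.98 and 194.4 ± 3.56 CPM (−0.06 ± 0.04, adjusted p 0.349), with all OGD/R libraries below the controls. TGFBR1 (0.02, adjusted p 0.871) and SMAD2 (−0.03, adjusted p 0.732) had overlapping groups.

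The genes whose levels over the 6 libraries were most like those of ID1, among 11189 genes of at least 5 CPM, were WDHD1 (Pearson's r of log2 CPM 0.980), PPP2R3B (0.971), ZNF816 (0.970), NAIF1 (0.969) and LYSMD2 (0.968). None of them passed the edgeR test, with log2 fold changes from −0.06 for PPP2R3B to −0.02 for LYSMD2. These r values are a description over 6 libraries that share 1 scaling, and the genes were picked as the highest of many.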
